A study of Mus musculus with 6 samples.

Results

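The insulin-like growth factor (IGF) system was followed through 10 genes: the ligands *Igf1* and *Igf2*, the receptors *Igf1r* and *Igf2r*, and the binding proteins *Igfbp2* to *Igfbp7*. They were taken by gene name from the 56884 genes quantified in each library, and each name matched 1 gene. Of the 10, 8 passed the filter on low values and were tested among 15426 genes, while *Igf2* and *Igfbp2* were at or close to 0. The RNA came from a mouse cell line of the stromal vascular fraction (SVF) of subcutaneous white adipose tissue, the fraction that holds adipocyte precursors, at day 2 of beige adipocyte differentiation. Cells overexpressed PPARγ2 K382Q, in which glutamine mimics the acetylated lysine, or PPARγ2 K382R, in which arginine mimics the deacetylated lysine, with 3 biological replicates of each mutant. In both groups the mutant was delivered by a retroviral vector in puromycin-selected stable lines that kept their own *Pparg* gene, and there was no group with wild-type PPARγ2 or an empty vector among the samples. The labels do not say whether the replicates came from separate transductions, so p-values measure the spread between these samples, which may be technical. Both groups were in the same induction medium, with 5 μg/mL insulin, 2 μg/mL dexamethasone, 0.5 μM rosiglitazone, 500 μM isobutylmethylxanthine, 125 μM indomethacin and 1 nM T3 in medium with 10% FBS. The comparison asks how the acetylation state of this lysine of PPARγ2, the nuclear receptor that drives adipocyte differentiation, bears on gene expression in early beige adipocytes.

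IGF1 and IGF2 are small secreted hormones related to insulin that act through the IGF1 receptor, a tyrosine kinase close to the insulin receptor. The IGF2 receptor, which is also the cation-independent mannose 6-phosphate receptor, has no kinase and carries IGF2 to lysosomes. The binding proteins are secreted, hold IGFs in the medium and matrix, and release them when proteases cleave them, so they can restrain or prolong IGF action. In adipose tissue, preadipocytes and adipocytes make IGF1 and several binding proteins, and insulin at the high levels used in adipogenic medium also binds the IGF1 receptor.

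Total aligned length was estimated at 5.95 to 7.5 Gb in the K382Q libraries and 6.53 to 8.15 Gb in the K382R libraries. *Pparg*, the overexpressed gene, was at 1333, 1164 and 1104 TPM (a transcript level per gene length that sums to the same total in every library) in K382Q cells and at 1590, 1632 and 1612 TPM in K382R cells, a log2 fold change of -0.43 ± 0.06 (SE, limma, adjusted p = 0.000977), and these values hold vector and endogenous transcripts alike. By Western blot the paper reports broadly similar protein levels of the mutants. The part of the *Pparg* transcript difference in the results below was not tested. The adipocyte label was borne out by its markers, since 9 adipocyte genes summed to 54024 to 57866 TPM in K382Q cells and 44670 to 45942 TPM in K382R cells, most of it *Fabp4*. These markers did not move one way: *Fabp4*, *Cd36* and *Cidec* were higher in K382Q cells, *Adipoq*, *Cebpa* and *Lpl* were lower, and the other 3 were not called. After median-ratio scaling 5 were called higher and 2 lower, as *Lpl* lost its call and *Plin1* and *Plin4*, lipid droplet coat proteins, gained one (0.10 and 0.12 on the log2 scale, adjusted p = 0.0292 and 0.0285). Of all tested genes 11.1% were called higher and 36.9% lower on deposited TPM, and 19.8% and 20.4% after median-ratio scaling. *Adipoq*, the gene of adiponectin, was at 149, 147 and 148 TPM in K382Q cells against 383, 346 and 351 TPM in K382R cells, and *Cebpa*, an adipogenic transcription factor, was at 164 to 192 TPM against 304 to 337 TPM. Leukocyte and endothelial markers summed to at most 5.18 and 2.25 TPM in any library, with *Adgre1*, *Cd3e* and *Emcn* at 0. Across all tested genes the median log2 fold change of K382Q against K382R was -0.14 on deposited TPM and 0.00 after median-ratio scaling, which sets the typical gene equal between libraries, so that changes below are given on deposited TPM and, where the call differs, after that scaling too.

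The members that differed most were binding proteins, and the 250 bases upstream of their annotated transcript starts (GRCm39 genome, GENCODE mouse release M39) are shown for the most abundant one, *Igfbp7*, which was lower in K382Q cells, and for the 3 that were higher in K382Q cells. The windows lie at chr5:77555915-77556164 on the minus strand for *Igfbp7*, chr11:7164180-7164429 on the minus strand for *Igfbp3*, chr11:98931814-98932063 on the plus strand for *Igfbp4* and chr1:72914044-72914293 on the minus strand for *Igfbp5*. Each is written 5′ to 3′ on the strand of the gene, and capitals mark the motifs searched on both strands.
Igfbp7: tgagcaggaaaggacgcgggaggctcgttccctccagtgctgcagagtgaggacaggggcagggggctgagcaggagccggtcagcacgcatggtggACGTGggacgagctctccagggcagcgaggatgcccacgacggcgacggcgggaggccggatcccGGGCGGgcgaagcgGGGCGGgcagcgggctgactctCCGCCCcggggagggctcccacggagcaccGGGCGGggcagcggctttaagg
Igfbp3: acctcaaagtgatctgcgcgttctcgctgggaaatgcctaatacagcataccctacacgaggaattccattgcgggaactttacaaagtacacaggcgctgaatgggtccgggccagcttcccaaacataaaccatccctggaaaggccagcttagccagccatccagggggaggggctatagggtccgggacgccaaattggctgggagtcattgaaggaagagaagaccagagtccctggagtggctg
Igfbp4: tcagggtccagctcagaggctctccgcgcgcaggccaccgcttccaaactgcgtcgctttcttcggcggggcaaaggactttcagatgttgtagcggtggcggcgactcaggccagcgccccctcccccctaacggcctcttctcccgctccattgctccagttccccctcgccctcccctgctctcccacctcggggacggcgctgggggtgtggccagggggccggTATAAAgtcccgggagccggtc
Igfbp5: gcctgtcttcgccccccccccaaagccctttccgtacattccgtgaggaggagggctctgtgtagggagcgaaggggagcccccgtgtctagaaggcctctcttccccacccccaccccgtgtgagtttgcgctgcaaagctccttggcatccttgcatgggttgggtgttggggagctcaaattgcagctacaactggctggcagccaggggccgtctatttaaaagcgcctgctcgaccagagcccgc

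In all, 6 motifs were searched in the windows of all 10 members and of 21770 protein-coding genes. The nuclear receptor half-site AGGTCA was in 13.1% of all promoters and in 0 of the 10 members, and the direct repeat of it with 1 free base between, the element that PPAR and RXR bind and that contains the half-site, was in 0.0367% of all promoters and in 0 members. The interferon response element core, GAAA repeated with 2 free bases between, was in 3.32% of all promoters and 0 members. The hypoxia response element core ACGTG was in 17.0% of all promoters and in 4 members, *Igf1r*, *Igf2r*, *Igfbp2* and *Igfbp7*. The GC box GGGCGG was in 36.3% of all promoters and in 5 members, with 4 matches in *Igfbp7*. The TATA box TATAAA was in 11.9% of all promoters and in 2 members, *Igfbp6* and *Igfbp4*, and in *Igfbp4* it lay 22 to 17 bases before the start. The *Igfbp7* window had a GC content of 73.2%, above that of 96.3% of promoters, and 26 CpG sites, whereas *Igfbp3* had 54.8% and 9 CpG sites, *Igfbp5* 62.0% and 11, and *Igfbp4* 68.4% and 21, beside a median GC content of 53.2% over all promoters. None of the 6 motifs was in the *Igfbp3* and *Igfbp5* windows, which says only that these letters do not occur there. Some windows do not adjoin the locus that was quantified. The *Igfbp3* window begins at 7164180, while the quantified locus ends at 7163923. That of *Igf1r* ends at 67601517, while the quantified locus starts at 67602575. Motif presence and absence therefore hold for the M39 starts only.

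Of the 8 members tested, 3 were higher and 5 lower in K382Q than in K382R cells at an adjusted p under 0.05 (limma, Benjamini-Hochberg), against a background in which 48.1% of all tested genes were called, 11.1% higher and 36.9% lower. The 3 that rose were all binding proteins, *Igfbp3*, *Igfbp4* and *Igfbp5*, and the 5 that fell were *Igf1*, both receptors, *Igfbp6* and *Igfbp7*. Changes over 2-fold were found in 3.88% of all tested genes (1.27% higher, 2.61% lower) and in 2 members, *Igfbp5* upward and *Igfbp7* downward. The median log2 fold change of the tested members was -0.30. The groups did not overlap in any of the 8, which was also so for 57% of all tested genes (14.1% with K382Q higher, 42.8% with K382Q lower). *Igfbp5* passed the filter only through the K382Q libraries, so that a difference was part of how it was selected. After median-ratio scaling 3 members were called higher and 3 lower, *Igf1r* and *Igfbp6* losing their call, while 40.3% of all tested genes were called, 19.8% higher and 20.4% lower. Without the third K382R replicate 5 members and 41.7% of all tested genes were called. With no filter on low values 4 members and 22.2% of 29522 genes were called.

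**Figure D1:**
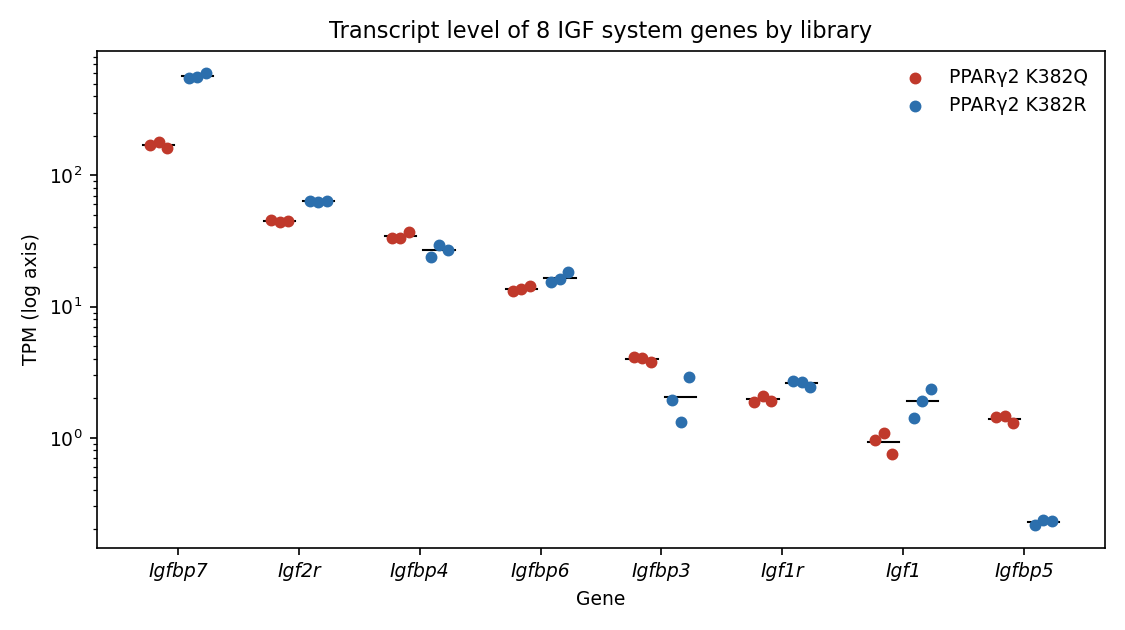
TPM on a log axis of the 8 tested IGF genes in each library, with 1 point per library (3 K382Q in red, 3 K382R in blue) and a bar at each group mean. *Igfbp7* stands above all others in both groups, at 162.7 to 178.5 TPM in K382Q cells and 553.8 to 597.7 TPM in K382R cells, and *Igfbp5* shows the widest gap in the other direction.

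Among the ligands, only *Igf1* was expressed at a measurable level, and it was lower in K382Q cells. *Igf1* (ENSMUSG00000020053.19, GRCm39 chr10:87694127-87772904, plus strand) was at 0.958, 1.09 and 0.751 TPM in K382Q cells and at 1.42, 1.91 and 2.37 TPM in K382R cells. All K382R libraries lay above all K382Q libraries, and the K382R libraries were more spread out (1.90 ± 0.48 TPM, SD, n = 3) than the K382Q libraries (0.931 ± 0.169 TPM). The mean level was 2.04-fold higher in K382R cells. The log2 fold change of K382Q against K382R, which the pseudocount of 0.5 TPM draws toward 0 at such low levels, was -0.73 ± 0.19 (SE, 95% confidence interval -1.18 to -0.28, limma, adjusted p = 0.0154). Read depth over the gene was 1.83 to 3.34 reads per base in K382Q and 4.27 to 6.08 in K382R libraries. The call was lost without the third K382Q replicate (log2 fold change -0.64, adjusted p = 0.0508) and without the third K382R replicate (-0.59, adjusted p = 0.0539), and over all 16 alternatives the adjusted p ranged from 0.0100 to 0.0584.

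*Igf2* (ENSMUSG00000048583.17, chr7:142204503-142220553, minus strand), the fetal growth factor that is expressed from the paternal allele, was listed at 0, 0.0231 and 0.0827 TPM in K382Q cells and at 0, 0.00575 and 0 TPM in K382R cells. These values were below the filter, and no difference was detectable at this depth. *H19*, the imprinted noncoding neighbour of *Igf2*, was also low, at 0.125, 0.539 and 0.313 TPM in K382Q cells and 0, 0.0486 and 0.0335 TPM in K382R cells, and was not tested. In every library *Igf1* was the more abundant ligand transcript.

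Both receptors were lower in K382Q cells, and of the 2 calls that of *Igf2r* held under all 16 alternatives. *Igf2r* (ENSMUSG00000023830.15, chr17:12901293-12988551, minus strand), the clearance receptor for IGF2, was at 45.3, 44.0 and 44.7 TPM in K382Q cells and at 63.4, 62.6 and 63.5 TPM in K382R cells. The libraries of each group lay within a narrow band, 44.7 ± 0.68 and 63.2 ± 0.50 TPM (SD, n = 3), and the bands were far apart. *Igf2r* was thus 29.3% lower in K382Q cells, with a log2 fold change of -0.50 ± 0.03 (SE, 95% confidence interval -0.57 to -0.42, limma, adjusted p = 1.75e-05), and of -0.35 after median-ratio scaling (adjusted p = 0.00011). Over the 16 alternatives its log2 fold change ranged from -0.51 to -0.33 and the gene was called in all 16. *Airn*, the noncoding RNA that overlaps *Igf2r* in antisense over 28354 bases and silences its paternal copy, was at 2.33 to 3.34 TPM with a log2 fold change of 0.09 (adjusted p = 0.655), and whether reads were counted by strand is not given in the sources used here.

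*Igf1r* (ENSMUSG00000005533.11, chr7:67602575-67883416, plus strand), the signalling receptor, was at 1.89, 2.08 and 1.92 TPM in K382Q cells and at 2.68, 2.67 and 2.42 TPM in K382R cells. The groups did not overlap, and the mean was 24.4% lower in K382Q cells (1.96 ± 0.10 against 2.59 ± 0.15 TPM, SD, n = 3). The log2 fold change of -0.33 ± 0.11 (SE, 95% confidence interval -0.60 to -0.06) passed the test narrowly (limma, adjusted p = 0.0451). It was -0.21 after median-ratio scaling (adjusted p = 0.194), and the call was kept in 5 of 16 alternatives and lost whichever library was left out. *Insr*, the insulin receptor, was far above *Igf1r* in every library, with a ratio of TPM of 12.7, 10.8 and 12.3 in K382Q cells and 9.55, 9.66 and 10.6 in K382R cells. The ratio of *Igf2r* to *Igf1r* was 24.0, 21.2 and 23.3 in K382Q cells and 23.6, 23.4 and 26.2 in K382R cells, and the groups overlapped.

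*Igfbp7* was the most abundant member and the one with the largest decrease in K382Q cells. It encodes a secreted, matrix-associated protein that binds IGFs weakly compared with the other binding proteins and also binds insulin. *Igfbp7* (ENSMUSG00000036256.14, chr5:77497087-77555888, minus strand) was at 170.0, 178.5 and 162.7 TPM in K382Q cells and at 553.8, 557.5 and 597.7 TPM in K382R cells. The gap between the groups was many times the spread within them (170.4 ± 7.89 and 569.7 ± 24.3 TPM, SD, n = 3), and the level was 3.34-fold higher in K382R cells. The log2 fold change was -1.74 ± 0.04 (SE, 95% confidence interval -1.84 to -1.63, limma, adjusted p = 2.93e-07). Read depth was 397 to 549 reads per base in K382Q and 1504 to 1776 in K382R libraries, and the log2 fold change stayed between -1.77 and -1.59 over the 16 alternatives, called and over 2-fold in each. *Polr2b*, which shares 85 bases with the *Igfbp7* locus on the opposite strand, was at 47.0 to 59.7 TPM with a log2 fold change of -0.26 (adjusted p = 0.00112).

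Genes of myofibroblasts and of adipocyte progenitors moved with *Igfbp7*, while the 9 adipocyte genes given above went both ways. *Adipoq*, *Cebpa* and *Lpl* were lower in K382Q cells, *Fabp4*, *Cd36* and *Cidec* were higher, and 3 were not called. After median-ratio scaling 5 of the 9 were called higher and 2 lower. All 5 myofibroblast markers tested of 6 were lower in K382Q cells (*Acta2*, *Tagln*, *Myl9*, *Col1a1* and *Postn*), 4 of them over 2-fold, beside 36.9% and 2.61% of all tested genes, though *Myl9* passed the filter only through the K382R libraries, so that its lower K382Q level was part of how it was selected. The 6 summed to 188 to 191 TPM in K382Q cells against 629 to 679 TPM in K382R cells. *Postn*, a matricellular protein, made up most of this sum, while *Acta2*, the defining smooth muscle actin, was at 0.675, 0.838 and 0.778 TPM in K382Q cells and 12.8, 12.6 and 14.4 TPM in K382R cells. The 4 progenitor markers tested of 8 (*Pdgfra*, *Pdgfrb*, *Ly6a* and *Thy1*) were all lower in K382Q cells, the 8 summed to 463 to 509 TPM against 774 to 811 TPM, most of it *Ly6a* (450 to 498 against 752 to 786 TPM), and *Dpp4* was at 0 in every library. In these bulk samples fewer cells of a type and less RNA per cell cannot be told apart, and the part of these cells in the *Igfbp7* result was not tested.

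*Igfbp6* was the other binding protein that was lower in K382Q cells, by a small margin. It encodes a binding protein that prefers IGF2 to IGF1. *Igfbp6* (ENSMUSG00000023046.7, chr15:102052797-102057946, plus strand) was at 13.2, 13.6 and 14.3 TPM in K382Q cells and at 15.3, 16.1 and 18.5 TPM in K382R cells. The groups did not overlap, though the highest K382Q and the lowest K382R library were close. The log2 fold change was -0.27 ± 0.08 (SE, 95% confidence interval -0.45 to -0.08, limma, adjusted p = 0.0246), of which -0.14 is the median of all genes. After median-ratio scaling it was -0.12 (adjusted p = 0.267), the call was kept in 9 of 16 alternatives with adjusted p up to 0.371, and it was lost without the first or second K382Q replicate (-0.24 and -0.26) and without the third K382R replicate (-0.19).

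*Igfbp5*, *Igfbp3* and *Igfbp4* were higher in K382Q cells. *Igfbp5* encodes a binding protein that is held in the extracellular matrix. *Igfbp5* (ENSMUSG00000026185.9, chr1:72897091-72914043, minus strand) was at 1.43, 1.46 and 1.30 TPM in K382Q cells and at 0.216, 0.238 and 0.232 TPM in K382R cells. Levels were low in both groups but tight within each (1.40 ± 0.08 and 0.228 ± 0.011 TPM, SD, n = 3), and the ratio of the means was 6.12. On the log2(TPM + 0.5) scale the change was 1.38 ± 0.16 (SE, 95% confidence interval 1.00 to 1.76, limma, adjusted p = 0.000307). Its size depended on the pseudocount, since 0.1 gave 2.19 and 1 gave 0.96. Read depth was 3.19 to 4.48 reads per base in K382Q and 0.583 to 0.757 in K382R libraries. The gene was called in all 16 alternatives. However, *Igfbp5* passed the filter only through the K382Q libraries, so its higher K382Q level was part of how it was selected. The fit with no filter on low values, which does not select it this way, also called it (limma, adjusted p = 0.00072).

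*Igfbp3* (ENSMUSG00000020427.12, chr11:7156086-7163923, minus strand), the main IGF carrier of serum, was at 4.13, 4.04 and 3.77 TPM in K382Q cells and at 1.95, 1.32 and 2.91 TPM in K382R cells. The K382Q libraries were close together, while the K382R libraries spread over more than a 2-fold range below them. The mean was 1.93-fold higher in K382Q cells, and the log2 fold change was 0.86 ± 0.21 (SE, 95% confidence interval 0.36 to 1.35, limma, adjusted p = 0.0124). It was called in 15 of 16 alternatives, with a log2 fold change of 0.63 to 1.09, the exception being the fit with no filter on low values (adjusted p = 0.0579).

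*Igfbp4* (ENSMUSG00000017493.13, chr11:98932070-98945218, plus strand), a substrate of the pappalysin proteases that as a rule inhibits IGF action, was at 33.5, 33.1 and 36.8 TPM in K382Q cells and at 24.0, 29.4 and 26.9 TPM in K382R cells. The lowest K382Q library was above the highest K382R library. The mean was 1.29-fold higher in K382Q cells (34.5 ± 2.04 against 26.7 ± 2.72 TPM, SD, n = 3), and the log2 fold change was 0.36 ± 0.08 (SE, 95% confidence interval 0.18 to 0.55, limma, adjusted p = 0.00646). It was larger after median-ratio scaling, at 0.51 (adjusted p = 0.00169), and the gene was called in all 16 alternatives.

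*Igfbp2* (ENSMUSG00000039323.19, chr1:72863662-72891633, plus strand), a binding protein of preadipocytes and liver, was listed at 0 in 5 of 6 libraries and at 0.198 TPM in the third K382Q replicate, and was not tested. Its locus lies 5457 bases from that of *Igfbp5*, and the genes differed in detection, since *Igfbp5* was above 0 in all 6 libraries.

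**Figure D2:**
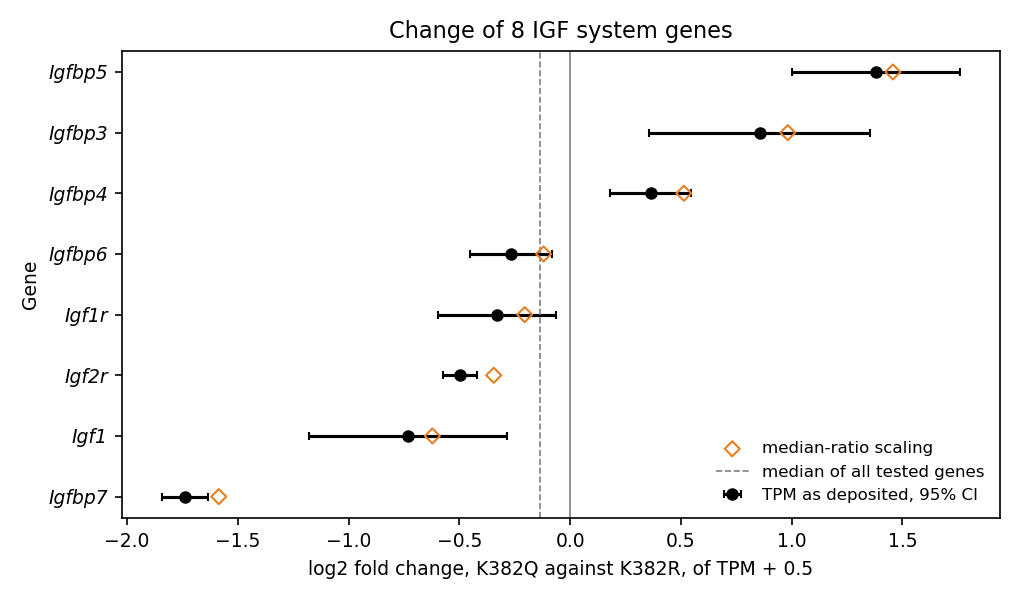
Log2 fold change of K382Q against K382R on the log2(TPM + 0.5) scale for the 8 tested members, with black points and 95% confidence intervals for deposited TPM (3 libraries per group) and orange diamonds for median-ratio scaling. The dashed line is the median of all tested genes (-0.14), and *Igfbp7* (-1.74) and *Igfbp5* (1.38) lie at the ends.

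The order of the levels was the same in both groups for the 4 most abundant members, *Igfbp7*, *Igf2r*, *Igfbp4* and *Igfbp6*, whose neighbouring ranges did not overlap. In K382Q cells *Igfbp3*, *Igf1r*, *Igfbp5* and *Igf1* followed, again without overlap between neighbours. In K382R cells *Igf1r* came next and was above *Igf1* in every library, the range of *Igfbp3* overlapped both, and *Igfbp5* came below them. *Igfbp2* and *Igf2* were lowest in both groups.

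The binding protein transcripts were mostly *Igfbp7* in both groups. The 6 binding proteins summed to 219 to 231 TPM in K382Q cells and to 595 to 646 TPM in K382R cells. Without *Igfbp7* the order was the reverse, with 52.1 to 56.4 TPM in K382Q cells and 41.4 to 48.5 TPM in K382R cells, again without overlap. *Igfbp7* made up 74.3% to 77.4% of the sum in K382Q cells and 92.2% to 93.0% in K382R cells. Among the remaining binding proteins, *Igfbp4* had the largest share in both groups, 63.5% to 65.3% in K382Q cells and 55.4% to 62.5% in K382R cells. The share of *Igfbp6* was 25.2% to 26% in K382Q cells and 34.2% to 38.1% in K382R cells. That of *Igfbp3* was 6.69% to 7.90% against 2.81% to 6.0%, and that of *Igfbp5* was 2.31% to 2.80% against 0.478% to 0.521%. These sums and shares are described without a test.

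**Figure D3:**
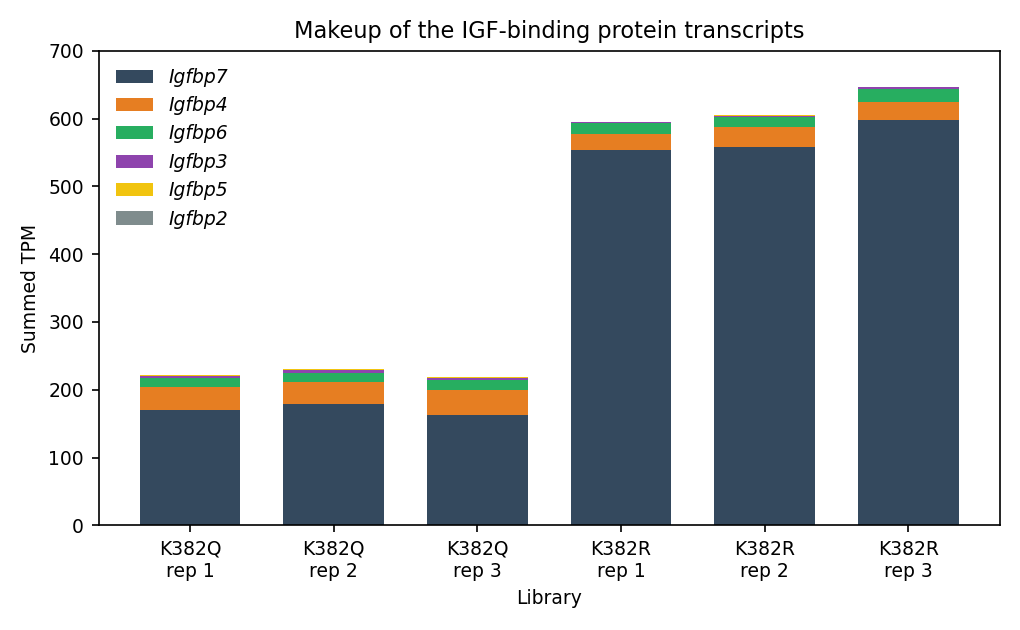
Summed TPM of the 6 IGF-binding protein genes in each of the 6 libraries, with 1 stacked bar per library starting at 0 and 1 colour per gene. The K382Q bars reach 219 to 231 TPM and the K382R bars 595 to 646 TPM, and *Igfbp7* is the largest block in every bar.

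Other genes of the IGF pathway were examined in a list of 27, of which 21 were tested. In K382Q cells 1 was higher, 12 were lower and 8 did not pass the test, so that 61.9% were called beside 48.1% of all genes, and their median log2 fold change was -0.28 (-0.14 after median-ratio scaling, with 1 higher and 9 lower). Among the proteases that cleave binding proteins and the inhibitors of these proteases, *Stc1*, a stanniocalcin that blocks the pappalysins, was the only one of the 21 tested genes that rose. It was at 3.82, 3.95 and 3.46 TPM in K382Q cells and at 0.972, 1.19 and 1.20 TPM in K382R cells, with a log2 fold change of 1.39 ± 0.13 (SE, limma, adjusted p = 8.06e-05), and it was called in all 16 alternatives. Its paralog *Stc2* was not called, at -0.35 (adjusted p = 0.0631). *Pappa*, the pappalysin that cleaves IGFBP4, was at 0.135 to 0.250 TPM in all libraries and was not tested, and *Pappa2*, which passed the filter only through the K382R libraries, was not called, at -0.43 (adjusted p = 0.0949). *Adam9* and *Adam12*, membrane metalloproteases, fell by 0.33 and 0.28 on the log2 scale, and *Htra1*, a secreted serine protease, was at -0.29 (adjusted p = 0.0577). After median-ratio scaling *Adam9* and *Adam12* were still called, at -0.17 and -0.13 (limma, adjusted p = 0.00267 and 0.00799).

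Of the adaptors downstream of the receptors, *Irs1*, the first docking protein for the insulin and IGF1 receptors, changed most. *Irs1* was at 9.80, 8.65 and 9.38 TPM in K382Q cells and at 15.6, 15.9 and 16.4 TPM in K382R cells, with a log2 fold change of -0.75 ± 0.07 (SE, limma, adjusted p = 6.47e-05). *Irs2* fell by 0.34 (adjusted p = 0.000386). After median-ratio scaling *Irs1* was at -0.61 and *Irs2* at -0.19 (limma, adjusted p = 0.000186 and 0.00767). *Insr* and *Shc1*, at -0.14 and -0.13, passed the test on deposited TPM but were at 0.01 and 0.02 after median-ratio scaling, where neither was called. *Grb10* and *Grb14*, adaptors that inhibit the receptors, were at -0.04 and -0.02 and were not called.

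The 3 IGF2 mRNA-binding proteins, which bind and stabilise many transcripts beside *Igf2*, were all lower in K382Q cells, also after median-ratio scaling. Of all tested genes 36.9% were called lower on deposited TPM and 20.4% after that scaling. *Igf2bp3* was at 10.2, 8.65 and 8.37 TPM in K382Q cells and at 16.5, 15.1 and 16.3 TPM in K382R cells, a log2 fold change of -0.78 (limma, adjusted p = 0.000206). *Igf2bp1* and *Igf2bp2* changed by -0.47 and -0.28 (adjusted p = 0.0111 and 0.0012). After median-ratio scaling *Igf2bp3* was at -0.64, *Igf2bp1* at -0.34 and *Igf2bp2* at -0.14 (limma, adjusted p = 0.000612, 0.0442 and 0.0331).

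In the growth hormone branch, which induces *Igf1* in many tissues, *Stat5a* was at 37.6, 36.1 and 36.4 TPM in K382Q cells and at 55.8, 56.2 and 56.8 TPM in K382R cells. Its log2 fold change was -0.61 ± 0.04 (SE, limma, adjusted p = 9.07e-06), and that of *Stat5b* was -0.29 (adjusted p = 0.00146). After median-ratio scaling *Stat5a* was at -0.46 and *Stat5b* at -0.14 (limma, adjusted p = 3.23e-05 and 0.0405). *Stat5b* was called in 15 of 16 alternatives. *Ghr*, the growth hormone receptor, and *Cish*, a feedback inhibitor, were not called (-0.20 and -0.18). *Socs2*, another feedback inhibitor, was called at -0.20 (adjusted p = 0.0371) but was at -0.05 after median-ratio scaling and kept its call in 8 of 16 alternatives. *Igfbp1* and *Igfbpl1* were at 0 in all libraries, and *Igfals*, the partner of IGFBP3 in serum, and *Insrr* stayed under 0.233 TPM.

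**Figure D4:**
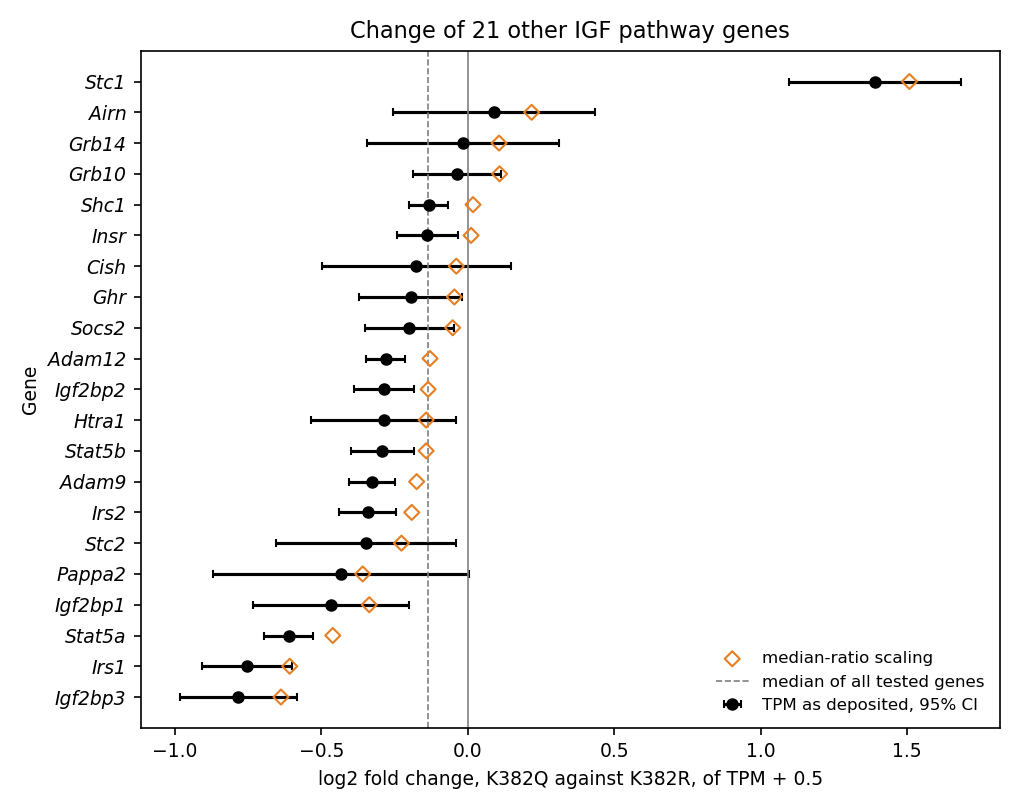
Log2 fold change of K382Q against K382R on the log2(TPM + 0.5) scale for the 21 tested genes of the wider IGF pathway, drawn with black points and 95% confidence intervals for deposited TPM (3 libraries per group) and orange diamonds for median-ratio scaling. *Stc1* (1.39) stands alone to the right, and *Igf2bp3* (-0.78) and *Irs1* (-0.75) lie farthest to the left.

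The genes whose levels over the 6 libraries were most like those of *Igf1* and *Igfbp7* were sought among 10644 genes with a mean of at least 5 TPM. For *Igf1* they were *Drg1*, *Dok4* and *Dhps*, with Pearson correlations of log2(TPM + 0.5) of 0.998, 0.995 and 0.994, and 210 genes were above 0.95. For *Igfbp7* they were *Ids*, *Gpx1* and *Bgn*, each at 0.9997 or above, and 2727 genes were above 0.95. The 6 points fall into the 2 groups and share libraries and depth, so the correlations with *Igfbp7* mostly restate the difference between the mutants. *Drg1*, *Dok4* and *Dhps* also followed the order of *Igf1* inside each group. *Drg1* was at 113.3, 115.1 and 109.7 TPM in K382Q cells and at 121.0, 127.9 and 134.7 TPM in K382R cells. They were picked as the closest of 10644 genes over 6 points to a gene of low level, so this likeness has no further support here. *Bgn*, the matrix proteoglycan biglycan, was at 198.8, 199.8 and 191.8 TPM in K382Q cells and at 547.9, 550.3 and 582.7 TPM in K382R cells.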

How the data were processed

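The members, the gene lists and the tests were chosen with earlier results of these data known. Per the study's methods, NEBNext Ultra libraries were sequenced as read pairs, trimmed with TrimGalore, aligned to GRCm39 with HISAT2 and quantified with StringTie. The annotation release and the use of strand are not given in the sources used here. The authors deposited 1 gene table per library with 3 values per gene. The deposited coverage is the mean read depth per base and is not normalized. The deposited FPKM is depth scaled to library size. The deposited TPM is FPKM rescaled to a fixed sum, so it gives shares of the transcripts and not amounts. The authors ran DESeq2 on read counts, which are not used here, so no counting interval is given and precision is that of 3 libraries per group.

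Repeated gene IDs (3 to 5 rows per library) were summed. Aligned length was taken as the most frequent ratio of coverage to FPKM, which 16.6% to 16.9% of genes above 1 FPKM shared within 0.2%. Depth per base is FPKM times that length, so both are estimates. Groups were compared by a two-sided limma test (version 3.58.1, R 4.3.3) of log2(TPM + 0.5), with the variance prior following the mean level, over the 15426 genes with at least 0.5 TPM in at least 3 libraries. P-values were adjusted by Benjamini-Hochberg over these genes, and a gene was called at an adjusted p under 0.05, with a fold change over 2 as a second threshold. The genes named were all members, all genes of the wider pathway list, *Pparg*, the markers and the 3 genes most correlated with *Igf1* and with the most abundant member. *Polr2b*, which overlaps *Igfbp7*, was added after its values were seen. No library was a copy of another, as identical values made up at most 0.0583% of the genes tested. In simulated K382Q and K382R libraries with 200 of 15127 tested genes changed, 81 of 100 were called at a true log2 change of 1 and 92 of 100 at 2, with 0 in the wrong direction and 11 unchanged genes called. The simulated noise was independent between genes, and changes were balanced in direction with no shift common to all genes. In the data 48.1% of tested genes were called, mostly lower, so the simulation cannot give the error rate there. The settings varied were the pseudocount (1 or 0.1), no filter, a minimum of 1 TPM, FPKM, median-ratio scaling, quantile normalization, no trend, array weights, the replicate block and leaving out each library, for which the tested genes were kept. Promoters were read with Python 3.11.15, pandas 2.3.3 and numpy 2.4.6, and figures drawn with matplotlib 3.10.9.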

Additional observations from a re-analysis of the deposited data

How the results depend on the processing

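No member changed direction under any of the 16 alternatives, 22 fold changes lost their call, and 5 counts of genes or members moved by more than 1.5 times. The other 181 values kept their call or, for counts, stayed within 1.5 times. *Igf2r*, *Igfbp4*, *Igfbp5* and *Igfbp7* were called in all 16, though *Igfbp5* passed the main filter only through the K382Q libraries. With no filter on low values 4 members were called, and *Igf1* (-0.73), *Igf1r* (-0.33), *Igfbp3* (0.86) and *Igfbp6* (-0.27) lost their calls with the same fold changes. That fit tested more genes (29522) and also changed the standard errors, and these were not separated. Both scaling alternatives and FPKM ended the calls of *Igf1r* (FPKM -0.21, median-ratio -0.21, quantile -0.25) and *Igfbp6* (FPKM -0.18, median-ratio -0.12, quantile -0.10), and the cause was not tested. For genes over 2-fold, FPKM gave 379 instead of 599, a pseudocount of 1 gave 443 and a pseudocount of 0.1 gave 889. Of the members 1 was over 2-fold on FPKM and with a pseudocount of 1, and 3 were, *Igfbp3* included (1.09), without the third K382R replicate. Leaving out 1 library gave 5 to 7 members called beside 6382 to 7057 of all 15426 tested genes, with a log2 fold change of -0.88 to -0.59 for *Igf1*, -0.37 to -0.31 for *Igf1r* and -0.32 to -0.19 for *Igfbp6*. On deposited TPM 1717 genes were called higher and 5698 lower (23.2% higher), against 3057 and 3153 (49.2% higher) after median-ratio scaling, 2954 and 3241 (47.7%) after quantile normalization and 2368 and 4135 (36.4%) on FPKM.

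The replicate numbers did not pair the samples, since the deviations of same-numbered libraries correlated at -0.02, 0.05 and 0.02 and not every library correlated best with its own number. With the replicate block 7 members were called, as *Igf1r* (-0.33) lost its call, and 6987 genes instead of 7415. Members under about 2 TPM rest on a depth of a few reads per base or less, down to 0.583 to 0.757 for *Igfbp5* in K382R libraries. *Igf2* and *Igfbp2* were compared only in the fit with no filter on low values. Neither was called there (log2 fold change 0.09 and 0.16, limma, adjusted p = 0.428 and 0.529), and values at or close to 0 cannot show a difference.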
